A study of Homo sapiens with 6 samples.

Results

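The RAF, MEK and ERK kinases were followed through a pooled CRISPR knockout screen by the counts of the guides that target their genes. The genes were taken by name from the gene column of the count table. Of 5 named genes, 4 were analysed, BRAF, MAP2K1, MAP2K2 and MAPK3, with 10 guides each, which makes 40 of 71526 guides and 4 of 7093 genes. ARAF was not analysed here. Paralogues were compared in the MEK tier.

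RAF, MEK and ERK kinases form the cascade that carries signals from active RAS to the nucleus. RAF kinases phosphorylate the MEK kinases, which do little else than phosphorylate ERK, and ERK phosphorylates many targets that drive growth and division. Each tier has paralogues, so the loss of 1 gene can be covered by its partner, and BCR-ABL, the fusion kinase of chronic myeloid leukaemia, is a known activator of RAS.

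HAP1, the line screened here, is near-haploid and stems from a chronic myeloid leukaemia. There were 6 samples, 2 of the guide library, 2 of parental cells and 2 of cells with a SETD2-mutant genotype, and no number of mutant clones is given. SETD2 is the enzyme that trimethylates H3K36. Both lines received guide virus at a multiplicity of infection of 0.7, were divided into replicates after infection and were kept under puromycin for 12 doublings. The replicates of a line therefore share 1 infection, and a p-value covers no more than the spread among these samples.

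Total counts ranged from 25082426 to 38428425 per sample, and each guide of the 4 genes had between 160 and 1002 counts in the library samples. A log2 change below 0 means that cells carrying a guide became rarer relative to the rest of the pool. For each gene the values of the 10 guides were averaged, with their standard error (SE). A guide was called at an adjusted p below 0.05 by edgeR, and a gene by robust rank aggregation (RRA) of the edgeR guide p-values, adjusted over 7090 genes in each direction. SETD2 guides were depleted in parental cells by −1.12 (adjusted p = 0.000298 by edgeR and RRA) and stood at −0.61 in SETD2-mutant cells (adjusted p = 0.739).

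Of the 4 genes, MAP2K1 alone was called in any comparison by edgeR and RRA. It encodes MEK1, and its guides were depleted in SETD2-mutant cells by −0.73 (SE 0.116, 10 of 10 guides down, adjusted p = 0.0191). In parental cells it stood at −0.14 (SE 0.27) and was not called. BRAF and MAP2K2, which encodes MEK2, lay above the library level in both lines without a call, and below it when samples were scaled on the guides labelled dummyguide. MAPK3, which encodes ERK1, had the lowest mean of the set at −0.92 (SE 0.354) in SETD2-mutant cells, again without a call. Of all genes, 9.04% were called depleted and 1.11% enriched in SETD2-mutant cells against library. The shares were 9.90% and 1.11% in parental cells and 1.28% and 1.03% between the lines, which is the background for these counts. Limma on gene means called more. In parental cells it called BRAF and MAP2K2 higher and MAPK3 lower (23.8% of all genes enriched, 31.5% depleted), and in SETD2-mutant cells BRAF and MAP2K2 higher and MAP2K1 and MAPK3 lower (23.8% enriched, 38.1% depleted).

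**Figure D1:**
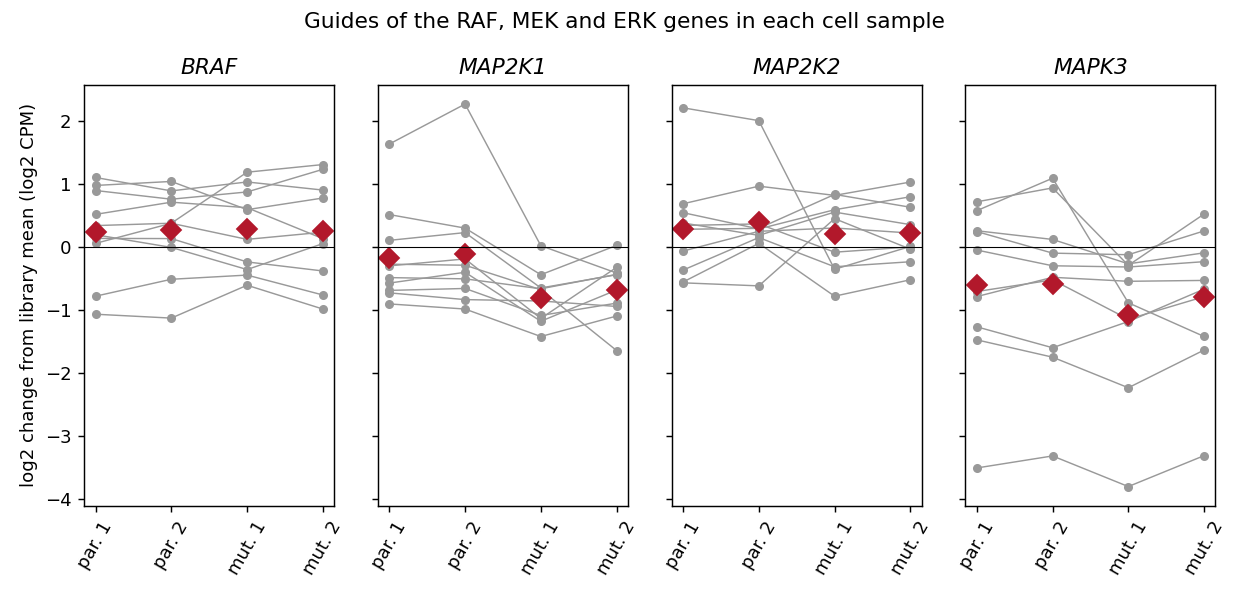
Log2 change of each guide (grey points joined by lines) from the library mean in the 2 parental (par.) and 2 SETD2-mutant (mut.) samples, in log2 CPM, with the mean over 10 guides as a red diamond. The MAP2K1 diamonds sit at −0.17 and −0.11 in parental samples and at −0.81 and −0.69 in SETD2-mutant samples, while those of BRAF stay between 0.23 and 0.27.

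BRAF (chromosome 7, 140713328 to 140924929) encodes the RAF kinase with the highest basal activity toward MEK. Its mean log2 changes from the library mean were 0.23 and 0.26 in parental samples and 0.27 and 0.25 in SETD2-mutant samples. The samples of the lines overlapped. Against library, the edgeR means were 0.25 (SE 0.219, adjusted p for enrichment 0.471 by RRA) in parental and 0.27 (SE 0.228, adjusted p 0.339) in SETD2-mutant cells. With dummyguide scaling they were −0.53 and −0.65. That scaling moved the median of all genes by −0.78 in parental and −0.92 in SETD2-mutant cells, so BRAF stayed above the median gene. Between the lines BRAF differed by 0.02 (SE 0.123), within the spread of its guides.

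The BRAF guides moved in both directions, with a spread near the median of genes with 10 guides. In parental cells their SD was 0.691, at the 60.9th percentile, where the median gene had 0.620. In SETD2-mutant cells it was 0.721, at the 54.8th percentile, where the median gene had 0.685. In parental cells edgeR called 5 of 10 guides up and 2 down, where 18.9% of all guides were called up and 21.1% down. Guide HZD_KIN_00471 had library counts of 952 and 862, parental counts of 2002 and 1527 and SETD2-mutant counts of 1260 and 1554. Guide HZD_KIN_00478 had library counts of 447 and 433, parental counts of 215 and 182 and SETD2-mutant counts of 196 and 203. The first therefore rose and the second fell in each line at the depth of each sample, with log2 fold changes of 1.00 and −1.11 in parental cells and adjusted p of 0.000281 and 0.00418 by edgeR. A single guide, HZD_KIN_00472, was higher in SETD2-mutant than in parental cells, by 0.89 (adjusted p = 0.00216 by edgeR), and HZD_KIN_00479 was lower, by −0.44 (adjusted p = 0.0271).

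MAP2K1 (chromosome 15, 66386912 to 66491544) had a mean change from library of −0.14 (SD 0.0446, n = 2) in parental and −0.75 (SD 0.0879, n = 2) in SETD2-mutant samples, on the scale of log2 CPM. Its sample values were −0.17 and −0.11 in parental and −0.81 and −0.69 in SETD2-mutant cells, so the lines did not overlap. Both SETD2-mutant samples lay below both parental samples for 38.8% of all genes and above them for 26.9%. Of the 4 kinase genes, MAP2K1, MAP2K2 and MAPK3 were in the first class and none was in the second. The edgeR difference between the lines was −0.59 (SE 0.192, 10 of 10 guides down), which placed MAP2K1 362nd from the lowest of 7090 genes. RRA did not call it (adjusted p = 0.948). Limma on gene means did (adjusted p = 0.00113), as it did for 22.4% of all genes in that direction.

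In SETD2-mutant cells 8 of 10 MAP2K1 guides were called down by edgeR, where 23.7% of all guides were. The log2 fold changes ran from −1.26 to −0.19, and their SD of 0.366 was at the 4.95th percentile of genes with 10 guides, so the MAP2K1 guides were more alike there than those of most genes. In parental cells 4 guides were called down and 1 up (21.1% and 18.9% of all guides), and the SD was 0.854. Counts summed over the guides put MAP2K1 at 0.05 there, above the library but below the median of 0.10 that this summary gave for all genes. The guide called up was HZD_KIN_02906. It was counted 469 and 439 times in the library samples, 1451 and 1991 times in the parental samples and 313 and 312 times in the SETD2-mutant samples. It rose by 1.98 in parental cells (adjusted p = 0.000322 by edgeR) and stood at −0.19 in SETD2-mutant cells (adjusted p = 0.524).

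Without that guide, the parental MAP2K1 mean was −0.37 (SE 0.147) and the SETD2-mutant mean −0.79 (SE 0.111), and the difference between the lines shrank from −0.59 to −0.42 (SE 0.0856). The depletion call in SETD2-mutant cells held without it (adjusted p = 0.00573 by edgeR and RRA). It did not hold without SETD2-mutant replicate 1 (0.101), without parental replicate 1 (0.132) or without parental replicate 2 (0.133), all adjusted p by edgeR and RRA. It also missed the threshold with only the 2 groups fitted (0.138), at a rank share limit of 0.1 (1) and with dummyguide scaling (0.0917), at means of −0.74, −0.73 and −1.65.

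Against library, most genes around MAP2K1 on chromosome 15 were lower than MAP2K1. Within 5 Mb on either side, 30 other genes were tested, and all 30 had a mean below 0 in each line. Parental cells gave them a median of −0.67 and SETD2-mutant cells one of −0.87. Of the 30, 5 and 6 were called depleted, or 16.7% and 20%, against 9.90% and 9.04% of all genes. In the other parts of the chromosome described below, the shares ran from 9.68% to 13.0% in parental and from 8.70% to 12.9% in SETD2-mutant cells. MAP2K1 was 0.53 above the median of its neighbours in parental cells, where 29 of the 30 were lower. In SETD2-mutant cells it was 0.14 above their median, and 20 were lower. Between the lines the neighbours had a median of −0.33, MAP2K1 lay 0.26 below it, and 5 of the 30 were lower than MAP2K1. HAP1 is known to carry an extra copy of a stretch of chromosome 15 in many stocks. The copy number of these lines was not measured here, and its part in the MAP2K1 result was not tested.

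**Figure D2:**
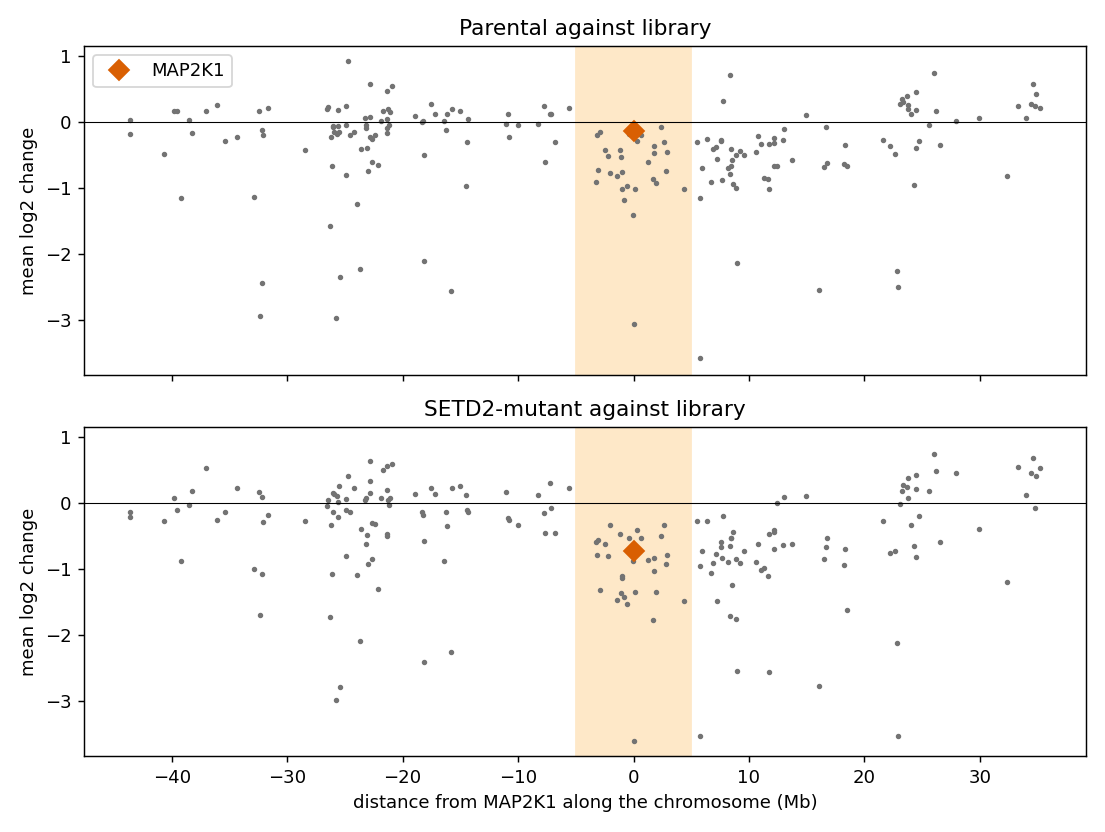
Mean log2 change against library of each tested gene on the chromosome of MAP2K1 (grey points), by distance from MAP2K1 in Mb, for parental (top) and SETD2-mutant cells (bottom). The shaded band marks 5 Mb on either side, where the medians are −0.67 and −0.87, and MAP2K1 (orange diamond) lies at −0.14 and −0.73.

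The low stretch went on to one side. The 47 genes lying from 5 to 20 Mb beyond MAP2K1 had a parental median of −0.56 and a SETD2-mutant median of −0.73. The 31 genes more than 20 Mb beyond had medians of 0.17 and 0.12. The 92 genes more than 5 Mb before had medians of −0.07 and −0.13, close to −0.01 and −0.05 for all 7090 genes. MAP2K5, which encodes the MEK kinase of the separate ERK5 module, lies 1.24 Mb from MAP2K1 and shared its call. Its depletion in SETD2-mutant cells was −0.87 (SE 0.188, adjusted p = 0.000816 by edgeR and RRA), and in parental cells it stood at −0.60 (adjusted p = 0.114).

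MAP2K2 (chromosome 19, 4090321 to 4124122) was not called in either line. Its sample values were 0.29 and 0.39 in parental and 0.20 and 0.22 in SETD2-mutant cells. The parental samples were thus above the SETD2-mutant samples without overlap. Against library, the edgeR means were 0.35 (SE 0.232) and 0.22 (SE 0.159), with adjusted p for enrichment of 0.666 and 0.812 by RRA. With dummyguide scaling they were −0.43 and −0.71. Its 87 tested neighbours within 5 Mb had medians of −0.01 and −0.07, and the difference between the lines was −0.13 (SE 0.266).

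Between the lines edgeR called 1 of 10 MAP2K2 guides down and 1 up, near the shares of all guides (12.8% down and 11.5% up). Of the 10 MAP2K1 guides, 3 were called down. HZD_KIN_02908 was higher in SETD2-mutant cells by 0.82 (adjusted p = 0.0146 by edgeR), from −0.60 in parental cells to 0.22. The lower guide moved further. Guide HZD_KIN_02917 had library counts of 397 and 386, parental counts of 1866 and 1432 and SETD2-mutant counts of 208 and 361. It rose by 2.11 in parental cells (adjusted p = 5.79e-05 by edgeR) and stood at −0.16 in SETD2-mutant cells (adjusted p = 0.447). Without it, the parental mean was 0.15 and the SETD2-mutant mean 0.26, and the difference between the lines turned from −0.13 to 0.11. Over the whole table, 434 of 71470 guides (0.607%) stood above 1 in parental cells and below 0 in SETD2-mutant cells, and among the 40 guides 2 did, HZD_KIN_02906 and HZD_KIN_02917. They were singled out after their values were seen.

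MAP2K1 stood below MAP2K2 in every cell sample. The differences of their gene means were −0.46 and −0.50 in parental samples and −1.01 and −0.91 in SETD2-mutant samples, against 0.05 and −0.05 in the library. Against library the pair differed by −0.48 in parental cells and by −0.96 in SETD2-mutant cells (adjusted p = 0.000166 and 4.82e-08 by limma). Limma called 70.2% and 61.6% of all genes as different from MAP2K2 in these comparisons, which is the background for both. The genes within 5 Mb had medians of −0.67 and −0.87 for MAP2K1 and of −0.01 and −0.07 for MAP2K2. Minus these medians, MAP2K1 was at 0.53 in parental and 0.14 in SETD2-mutant cells, and MAP2K2 at 0.35 and 0.29. On that measure MAP2K1 was the higher of the pair in parental cells. The part of the neighbours in the difference against library was not tested. Over guides the pair differed by −0.48 (SE 0.356) in parental and by −0.95 (SE 0.196) in SETD2-mutant cells. The parental difference was thus not far above its guide SE, and the limma p-values do not count the spread over guides. Between the lines the difference moved by −0.48 (guide SE 0.328, adjusted p = 0.000714 by limma, with 34.5% of all genes called). This was 1 pair in 3 comparisons, and an exact permutation test of 2 samples against 2 cannot go below p = 0.333.

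**Figure D3:**
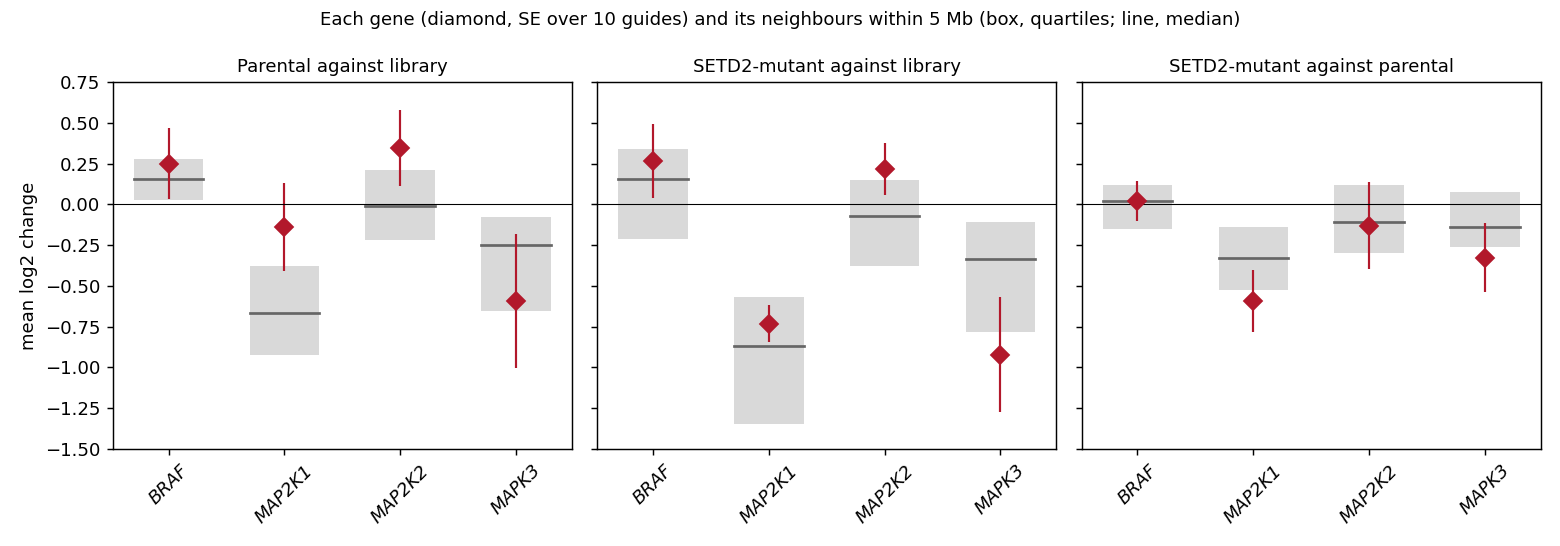
Mean log2 change of each kinase gene (red diamond, with bars of 1 SE over 10 guides) beside the genes within 5 Mb (grey box from the lower to the upper quartile, dark line at the median), for the 3 comparisons. MAP2K1 neighbours have medians of −0.67, −0.87 and −0.33 from the left panel to the right, while BRAF and its neighbours stay near or above 0.

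MAPK3 (chromosome 16, 30114105 to 30123220) had the lowest mean of the 4 kinases in both lines. Its sample values were −0.60 and −0.59 in parental and −1.08 and −0.79 in SETD2-mutant cells. Both SETD2-mutant samples were below both parental samples, and SETD2-mutant replicate 1 was the lowest. Against library the edgeR means were −0.60 (SE 0.411, adjusted p = 0.731 by RRA) and −0.92 (SE 0.354, adjusted p = 0.435). RRA called the second with dummyguide scaling (mean −1.85, adjusted p = 0.0175). Between the lines the difference was −0.33 (SE 0.211, adjusted p = 0.978), and limma on gene means called it (adjusted p = 0.0317), as it called 22.4% of all genes lower. The 56 tested neighbours had a parental median of −0.25 and a SETD2-mutant median of −0.34, and 16 and 13 of them were lower than MAPK3.

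Against library, the guides of MAPK3 were more spread than those of the other kinase genes. In parental cells their SD was 1.30, at the 92.3rd percentile of genes with 10 guides. There 5 of the 10 guides were called down and 2 up, where 21.1% of all guides were called down and 18.9% up. Guide HZD_KIN_03219 had library counts of 999 and 900, parental counts of 84 and 85 and SETD2-mutant counts of 45 and 86. Its loss was nearly the same in each line, at −3.44 and −3.55 (adjusted p = 3.63e-05 and 2.88e-05 by edgeR), and was the largest of the 40 guides. Without it, the parental MAPK3 mean was −0.28 (SE 0.294) and the SETD2-mutant mean −0.63 (SE 0.223).

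Other MAPK3 guides also fell in both lines. HZD_KIN_03227 stood at −1.61 in parental and −1.91 in SETD2-mutant cells (adjusted p = 0.00103 and 0.000437 by edgeR), and HZD_KIN_03225 at −1.43 and −0.90 (adjusted p = 0.00131 and 0.00928). HZD_KIN_03226 moved in opposite directions. Its library counts were 877 and 811, its parental counts 1294 and 1634 and its SETD2-mutant counts 310 and 288. It rose by 0.85 in parental cells (adjusted p = 0.0118 by edgeR) and fell by 1.14 in SETD2-mutant cells (adjusted p = 0.00337), a difference of −2.0 between the lines (adjusted p = 0.00126).

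**Figure D4:**
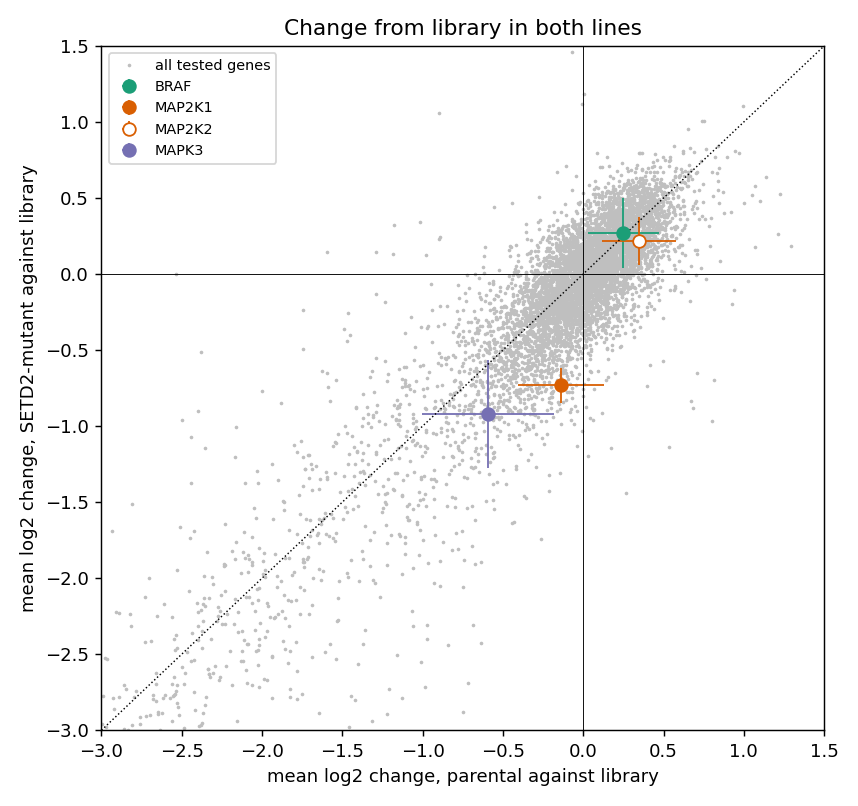
Mean log2 change against library of all tested genes (grey) in parental (x axis) and SETD2-mutant cells (y axis), with the 4 kinases and bars of 1 SE over 10 guides; 209 of 7090 genes lie outside the axes and the dotted line marks equal change. BRAF and MAP2K2 sit above 0 on both axes, to the upper right of the middle of the cloud, MAP2K1 at −0.14 and −0.73 below the line, and MAPK3 at −0.60 and −0.92.

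Across the 40 guides, edgeR called 12 down and 10 up in parental cells (21.1% and 18.9% of all guides), 16 down and 8 up in SETD2-mutant cells, and 6 down and 2 up between the lines, where 12.8% of all guides were called down and 11.5% up. In SETD2-mutant cells those shares were 23.7% and 22.2%. In the order of the gene means, parental cells had MAPK3, MAP2K1, BRAF and MAP2K2 from low to high, and SETD2-mutant cells had MAPK3, MAP2K1, MAP2K2 and BRAF. BRAF and MAP2K2 in both lines, and MAPK3 and MAP2K1 in SETD2-mutant cells, differed by less than the larger guide SE of the pair. The other genes next to each other in these orders differed by more than that. The SE of a difference is larger than the SE of either gene, and it was computed only for the MEK pair. These orders were therefore not tested.

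By Euclidean distance over the 4 cell samples, the 2 genes closest to MAP2K1 were STOML3 (distance 0.116) and UPK1B (0.118), and MAP2K2 ranked 5103rd of 7089. The closest to MAP2K2 were PSKH1 (0.0203) and XKR8 (0.045). For MAPK3 they were SLC4A11 (0.0962) and VKORC1L1 (0.126). For BRAF they were VAMP7 (0.0293) and RGR (0.0376).

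Upstream of RAF, the measured genes of RAS and its activation were also near the library level. None of 6 was called in any comparison by edgeR and RRA, with a parental median of 0.02 and a SETD2-mutant median of −0.10. Between the lines NRAS stood at −0.26, MRAS at −0.15 and RRAS2 at 0.04, each a RAS family GTPase. PTPN11, the phosphatase SHP2 that RAS activation by receptors needs, stood at 0.36 (SE 0.116). Before adjustment, 0 of the 6 had an RRA p under 0.05 in any of the 3 comparisons. The share of all genes with such a p was not computed. Counts before adjustment, here and below, therefore have no background to be read against. Limma called 2 lower and 1 higher between the lines (22.4% and 12.8% of all genes), 2 lower in parental cells (31.5%) and 3 lower in the mutant (38.1%). The partners of the fusion of the line, BCR and ABL1, were not called either, with BCR at 0.18 and ABL1 at −0.19 in parental cells and at −0.50 and −0.21 in SETD2-mutant cells. The BCR mean of −0.50 had an SE of 0.698, with 4 of 10 guides down and a median over guides of 0.16. BCR had an RRA p under 0.05 before adjustment in parental cells for enrichment (0.00866) and between the lines for depletion (0.0109). Limma called BCR lower between the lines (22.4% of all genes) and ABL1 lower in parental cells (31.5%). It called both lower in SETD2-mutant cells (38.1%), but not BCR in parental cells. Guides against the normal genes and the fusion cannot be told apart here.

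Genes that bind, fold or regulate the RAF and ERK kinases gave some calls. Of 8 such genes, 2 were depleted and 1 enriched in parental cells (9.90% and 1.11% of all genes). In SETD2-mutant cells 3 were depleted (9.04%), and between the lines 1 was depleted and 1 enriched (1.28% and 1.03%). Limma called 5 lower and 2 higher in parental cells (31.5% and 23.8% of all genes). It called 4 lower and 1 higher in SETD2-mutant cells (38.1% and 23.8%) and between the lines (22.4% and 12.8%). PPP1CB, the catalytic subunit of a phosphatase that activates RAF, was depleted by −2.19 in parental and −2.71 in SETD2-mutant cells (adjusted p = 0.000967 and 0.00054 by edgeR and RRA). YWHAZ, a 14-3-3 protein that binds RAF, was depleted by −0.95 and −1.35 (adjusted p = 0.00735 and 0.00128). HSP90AB1, a chaperone with RAF kinases among its clients, was lower in SETD2-mutant than in parental cells by −0.94 (SE 0.204, adjusted p = 0.0354). YWHAE, another 14-3-3 protein, was higher by 0.49 (SE 0.249, adjusted p = 0.00028). CNKSR2, a scaffold of RAF signalling, was enriched in parental cells at a mean of 0.31 (adjusted p = 0.0153). These proteins serve many pathways besides this cascade. Upward means against library, here and for the genes downstream and the inhibitors, are relative to the pool, and those named are smaller than the shift of all genes with dummyguide scaling.

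Downstream, 2 of 13 ERK effectors were depleted in parental cells (9.90% of all genes). In SETD2-mutant cells 2 were depleted and 3 enriched (9.04% and 1.11%). Against library limma called 3 of the 13 lower and 6 higher in each line. It called 31.5% of all genes lower in parental and 38.1% in SETD2-mutant cells, and 23.8% higher in each line. MYC, a transcription factor stabilised by ERK, was depleted by −6.42 (SE 0.728) and −5.12 (SE 0.303). The adjusted p was 1.80e-08 and 1.08e-06 by edgeR and RRA. On gene means of log2 CPM the MYC values lay closer together, at −5.31 and −5.05. Their difference between the lines was 0.26 (adjusted p = 0.111 by limma). RPS6KA4, the kinase MSK2, was depleted by −0.45 and −0.72 (adjusted p = 0.0162 and 0.0103). In SETD2-mutant cells the RSK kinases RPS6KA3 and RPS6KA6 were enriched at 0.47 and 0.53 and the transcription factor ETS1 at 0.70 (adjusted p = 0.00649, 0.0347 and 0.0219). In parental cells the same 3 genes stood at 0.42, 0.23 and 0.58 without a call. None of the 13 was called between the lines by edgeR and RRA, while 2 had an RRA p under 0.05 before adjustment and limma called 2 lower (22.4% of all genes) and 1 higher (12.8%). There RPS6KA6 stood at 0.30 (adjusted p = 0.148) and FOS at 0.15.

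Of 6 measured inhibitors of the cascade, edgeR and RRA called 1 enriched in each line (1.11% of all genes in each). Between the lines they called none (1.28% of all genes depleted and 1.03% enriched). There 1 had an RRA p under 0.05 before adjustment, and limma called 1 lower, as it did 22.4% of all genes. Against library limma called 5 of the 6 higher in parental cells, and 4 higher and 1 lower in SETD2-mutant cells. It called 23.8% of all genes higher in each line. The gene enriched by edgeR and RRA was DAB2IP, a RAS GTPase activating protein, at 0.71 in parental and 0.48 in SETD2-mutant cells (adjusted p = 0.0233 and 0.0453). The median of the 6 was 0.30 in each line, against −0.01 and −0.05 for all genes. Between the lines NF1, the GTPase activating protein lost in neurofibromatosis, stood at 0.02 (SE 0.265), PEBP1, which binds RAF, at 0.14, and CIC, a repressor that ERK switches off, at −0.32 (SE 0.256).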

How the data were processed

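The values deposited by the authors are unnormalized read counts of guides, whole numbers that sum to a different total in each sample. MAGeCK and the build hg38 are named per the submitters' processing notes, without versions or parameters. All columns were matched to samples by title, and guide sequences were not analysed here. Gene positions are from a RefSeq table of GRCh38, in which 6760 symbols matched directly and 316 by 1 synonym.

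A guide was tested if its library counts averaged at least 30 (71470 guides, all 40 of the kinase genes among them). TMM scaling and the quasi-likelihood fit over all 6 samples by group (glmQLFit, robust) came from edgeR 4.0.16, run in R 4.3.3. RRA was rebuilt with a rank share limit of 0.25 and an exactly computed null, since MAGeCK itself was not run. Genes needed 3 or more guides. The MEK paralogue difference and gene means of log2 CPM (prior count 2) were fitted with limma 3.58.1 across all genes. All p-values were adjusted by Benjamini-Hochberg. The scripts were tested on simulated counts. Limma called a large share of all genes, and that share is printed with its calls.

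The genes, the pathway lists and the tests were chosen with earlier results of these data known. Some genes of the cascade and of the lists are not reported here, and the planned pair of ARAF and BRAF was not run. List genes were named when called. In lists with few calls, up to 4 genes were named by their RRA p between the lines, lowest first.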

Additional observations from a re-analysis of the deposited data

Results flagged for a closer look

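The difference between MAP2K1 and MAP2K2 was not the same in the lines. By limma it moved by −0.48 from parental to SETD2-mutant cells (adjusted p = 0.000714, both SETD2-mutant samples lower, 34.5% of all genes called as different from MAP2K2). Without the outlying guide of each gene it moved by −0.55, and with medians over guides by −0.46 (adjusted p = 0.077). The SE over guides was 0.328. The genes within 5 Mb of MAP2K1 had a median of −0.33 between the lines and those near MAP2K2 −0.11, and the part of these in the result was not tested.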

How the results depend on the processing

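Each value was recomputed under other scalings, filters, tests and summaries of guides, and also by leaving out the farthest guide and subtracting neighbours in the library comparisons, both added after seeing the data. MAP2K1 in SETD2-mutant cells was called in 14 of 20 alternatives with a test. The call was lost with dummyguide scaling (−1.65), a rank share limit of 0.1 (−0.73) and only the 2 groups (−0.74), and leaving out each sample gave −0.82 to −0.69 (3 of 6 called). Minus its neighbours MAP2K1 was 0.14, the opposite sign. Dummyguide scaling also turned BRAF to −0.13 between the lines, −0.53 in parental and −0.65 in SETD2-mutant cells and MAP2K2 to −0.43 and −0.71, and MAPK3 gained a call in SETD2-mutant cells (−1.85). With limma on gene means calls were gained between the lines by MAP2K1 (−0.61) and MAPK3 (−0.34), in parental cells by BRAF (0.25), MAP2K2 (0.34) and MAPK3 (−0.60), and in SETD2-mutant cells by BRAF (0.26), MAP2K2 (0.21) and MAPK3 (−0.94). With a prior count of 0.5 the values were, in the same order, −0.61, −0.34, 0.25, 0.34, −0.60, 0.26, 0.21 and −0.94. Of all genes, that setting called 1542 lower and 864 higher between the lines. It called 2184 lower and 1640 higher in parental cells, and 2685 lower and 1667 higher in SETD2-mutant cells. Counts summed per gene called 1540 of all 7090 genes lower and 1370 higher between the lines, 1656 lower and 3002 higher in parental cells, and 1824 lower and 2957 higher in SETD2-mutant cells, where edgeR and RRA called 91 and 73, 702 and 79, and 641 and 79. With them, calls were gained between the lines by MAP2K1 (−0.73), MAP2K2 (−0.15) and MAPK3 (−0.51), in parental cells by BRAF (0.36), MAP2K2 (0.43) and MAPK3 (−0.30), and in SETD2-mutant cells by BRAF (0.34), MAP2K2 (0.28) and MAPK3 (−0.80), while BRAF between the lines (−0.017) and MAP2K1 in parental cells (0.049) changed sign. Medians over guides moved BRAF to −0.039 between the lines and 0.29 in parental cells, MAP2K1 to −0.42 and −0.39, MAP2K2 to 0.13 between the lines, and MAPK3 to −0.39 in parental and −0.73 in SETD2-mutant cells. They ended the call of MAP2K1 minus MAP2K2 between the lines (−0.46). Minus the neighbours, BRAF was −0.0042 between the lines, 0.096 in parental and 0.11 in SETD2-mutant cells, MAP2K1 −0.26 between the lines and 0.53 in parental cells, MAP2K2 −0.025 between the lines and 0.29 in SETD2-mutant cells, and MAPK3 −0.35 and −0.58. Rescaling to equal ribosomal gene dropout gave BRAF −0.018 and MAP2K1 −0.49 between the lines. Without the farthest guide BRAF was −0.014 and MAP2K2 0.11 between the lines. Leaving out each sample gave a range across 0 between the lines for BRAF (−0.0017 to 0.036). The cause of these changes was not tested. Replicate numbers did not pair the samples (correlations of −0.0025 to −0.005), and with the replicate block MAP2K1 in SETD2-mutant cells was −0.74 (adjusted p = 0.00565 by edgeR and RRA), with no call of a kinase gene or of the pair changed. Depth did not remove any of the 40 guides, and the lowest count was 45.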

Other observations

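The MAPK modules beside the ERK cascade gave few calls by edgeR and RRA. Of 17 measured genes of the JNK, p38, ERK5 and atypical MAPK modules, MAP2K5 alone was called by edgeR and RRA. It was depleted in SETD2-mutant cells against library, as were 9.04% of all genes. The medians were 0.09 in parental and 0.07 in SETD2-mutant cells. Against library limma called 6 of the 17 lower and 7 higher in parental cells (31.5% and 23.8% of all genes). In SETD2-mutant cells it called 6 lower and 6 higher (38.1% and 23.8%). Between the lines edgeR and RRA called none of the 17 (1.28% of all genes depleted and 1.03% enriched). Limma on gene means called 6 lower (22.4% of all genes) and 2 higher (12.8%). Before adjustment RRA gave 1 depleted and 3 enriched genes a p under 0.05, with no share of all genes to set beside them. The lowest of these p-values were those of MAP2K6, a p38 activating kinase, at 0.41 (SE 0.0788), and MAPK13, the kinase p38 delta, at −0.46 (SE 0.184).

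Of 19 MAP3 kinases outside the RAF family, TAOK1, an activator of the p38 and JNK modules, was called enriched in both lines at 0.84 (adjusted p = 0.000408 in parental and 0.000373 in SETD2-mutant cells by edgeR and RRA), a size close to the shift of all genes with dummyguide scaling. Against library limma called 6 of the 19 lower and 5 higher in parental cells (31.5% and 23.8% of all genes). In SETD2-mutant cells it called 6 lower and 4 higher (38.1% and 23.8%). Between the lines edgeR and RRA called none of the 19, and 1 had an RRA p under 0.05 before adjustment. There limma called 3 lower (22.4% of all genes) and 1 higher (12.8%).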
